A study of Drosophila melanogaster with 2 samples.

Results

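The 10 genes described here make, store, release or carry fat in Drosophila melanogaster: bmm, Lsd-1, Lsd-2, Apoltp, apolpp, mdy, Lpin, FASN1, Desat1 and SREBP. They were taken by gene symbol out of 13945 protein-coding genes on the chromosome arms that hold peaks, and all 10 matched the Ensembl annotation in dm6 coordinates. The rule uses no measured value, but the genes were proposed with results of these data in view, so their counts beside those of all genes are not an unselected comparison. For each gene, every summit of the deposited optimal peak list that lay in the gene body or within 5 kb of it was collected. This gave 18 of the 4159 optimal summits, and no summit was counted for more than 1 gene. A summit is the base at which the authors' peak caller placed the maximum of a peak.

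The data are chromatin immunoprecipitation followed by sequencing (ChIP-seq) of dmrt93B, a transcription factor with a DM domain, the DNA-binding domain shared with the sex determination factor Doublesex. A single group, dmrt93B-GFP, was analysed, with 2 biological replicates, each of whole wandering larvae of the third instar, with both sexes pooled and the age given as unknown. The line is transgenic and makes dmrt93B with GFP joined to its C-terminal end, so the tagged protein was profiled and no untagged or untreated larvae were analysed here. The sample descriptions call both libraries an input control, whereas their titles, assay name and antibody label describe a ChIP of the factor; they were grouped by the antibody label, and every value below belongs to libraries so labelled. Because whole animals were used, sites occupied in the fat body cannot be told apart from sites occupied in other tissues, and the lists hold no expression values against which a tissue could be checked.

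The fat body of the larva does the work of both liver and adipose tissue. Triacylglycerol is assembled there from newly made or imported fatty acids, packed into droplets coated by perilipins, and released by lipases when food is short or at metamorphosis. Lipoprotein particles, whose protein parts the fat body secretes, carry lipid through the hemolymph between gut, fat body and other organs. SREBP, a transcription factor held in membranes until it is cleaved, activates genes of fatty acid synthesis.

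In 7 of the 10 genes an optimal summit lay within 500 bp of one of the gene's own annotated transcription start sites (TSSs), against 13.1% of all protein-coding genes. These were bmm, Lsd-2, Apoltp, mdy, Lpin, FASN1 and Desat1, and in all 7 the summit lay upstream of the TSS, between 174 and 267 bp. Over all protein-coding genes, 89.5% of pairs of a gene and an own-promoter summit had the summit upstream. Of the sequences at the 7 summits, that of Lpin, with 21.8% G and C, is not printed. The other 6, with 50 bp on each side, are printed below to show their base composition. Each is written 5′ to 3′ along the strand of its gene, from the RefSeq Release 6 genome, in dm6 coordinates. Capitals mark uninterrupted runs of at least 8 A or T. The sequences of Lsd-2 and FASN1 hold no such run, and none of those printed overlaps an annotated UTR.
bmm, 244 bp upstream of the TSS, chr3L:14786606-14786706, minus strand: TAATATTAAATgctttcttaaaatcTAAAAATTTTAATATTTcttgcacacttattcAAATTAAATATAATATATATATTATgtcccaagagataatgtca
Apoltp, 222 bp upstream of the TSS, chr2L:9633907-9634007, plus strand: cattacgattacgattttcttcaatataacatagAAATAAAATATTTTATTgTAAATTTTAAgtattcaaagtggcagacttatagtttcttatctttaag
Desat1, 206 bp upstream of the fourth TSS, chr3R:12443326-12443426, plus strand: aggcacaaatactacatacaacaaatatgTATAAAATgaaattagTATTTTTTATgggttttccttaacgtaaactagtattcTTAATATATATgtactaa
mdy, 177 bp upstream of the first TSS, chr2L:16816433-16816533, plus strand: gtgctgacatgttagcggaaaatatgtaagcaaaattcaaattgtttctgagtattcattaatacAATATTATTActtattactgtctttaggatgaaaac
FASN1, 226 bp upstream of the first TSS, chr2L:3056322-3056422, plus strand: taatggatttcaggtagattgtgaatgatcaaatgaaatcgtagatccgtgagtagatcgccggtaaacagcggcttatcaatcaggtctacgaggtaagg
Lsd-2, 174 bp upstream of the TSS, chrX:15076344-15076444, minus strand: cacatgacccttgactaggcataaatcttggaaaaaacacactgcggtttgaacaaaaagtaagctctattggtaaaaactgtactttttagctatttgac

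A further pair of sequences is shown for contrast. The first surrounds the second Apoltp summit, which lies farther upstream and is the richer in G and C of the pair at that gene. The other surrounds the strongest of the 18 summits, which falls in the Desat1 window but at the promoter of the neighbouring gene CG18549.
Apoltp, 834 bp upstream of the TSS, chr2L:9633295-9633395, plus strand: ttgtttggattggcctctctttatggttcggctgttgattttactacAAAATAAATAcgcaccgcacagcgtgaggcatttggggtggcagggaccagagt
CG18549 promoter in the Desat1 window, chr3R:12449141-12449241, plus strand: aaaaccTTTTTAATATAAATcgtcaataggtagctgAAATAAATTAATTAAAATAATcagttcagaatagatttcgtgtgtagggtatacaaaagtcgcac

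Counted over gene bodies with 5 kb on each side, 9 of the 10 genes held an optimal summit, against 36.1% of all protein-coding genes. The exception was apolpp. Of the 18 summits, 11 were promoter summits, defined as lying within 500 bp of a TSS of any gene. Of these 11, 7 were at the gene's own TSS and 4 at the TSS of a neighbour. The other summits comprised 5 in introns, 1 in a 3′ UTR and 1 in intergenic sequence, and 0 lay in a coding exon. In the whole optimal list 39.3% of summits were promoter summits, 40.4% were in introns, 18.1% were intergenic, 0.553% were in 3′ UTRs and 0.192% in coding exons. The windows of the 10 genes held a mean of 1.8 summits, against 0.639 over all protein-coding genes. Per 10 kb of window they held 0.847 summits, against 0.378 over all protein-coding genes.

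**Figure D1:**
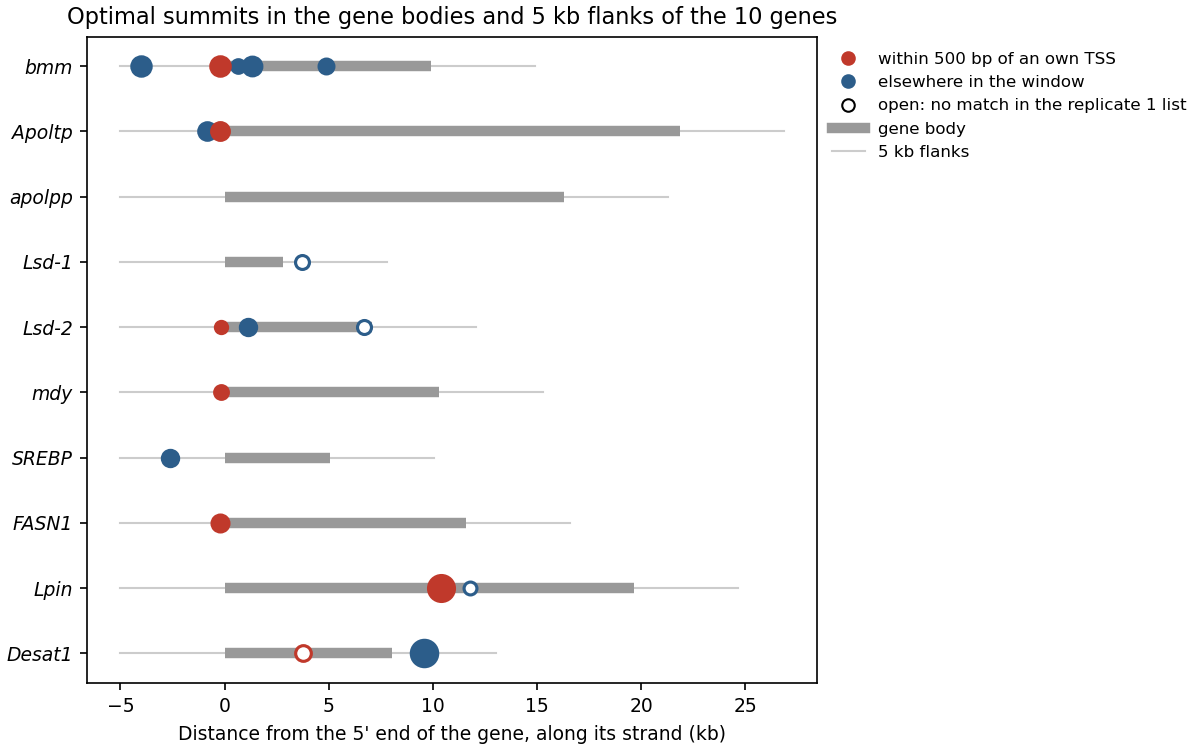
Optimal summits in the windows of the 10 genes. The horizontal axis is the distance in kb from the 5′ end of each gene along its strand, thick bars are gene bodies, thin lines are the 5 kb flanks, points are larger for summits nearer the top of the optimal list by signal, and open points have no match within 200 bp in the replicate 1 list. Points within 500 bp of an own TSS are drawn in red for 7 genes, apolpp has no point, and the 2 largest points belong to Lpin and to the downstream flank of Desat1.

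The count at own promoters was set beside 3 further backgrounds. Genes with several TSSs have more chances of a hit, and long genes have larger windows. Of the 4 genes with a single TSS (bmm, Apoltp, Lsd-2 and SREBP), 3 had an own-promoter summit, against 9.18% of protein-coding genes with a single TSS. Of the 6 genes with 2 or more TSSs, 4 had one, against 23.8% of such protein-coding genes. The 10 genes span 2806 to 21848 bp. Protein-coding genes within this range of length held a summit in the window in 43.6% and at an own promoter in 18.1%. Inside the range, lengths were not matched to those of the 10 genes. The shares of the 10 genes, 9 and 7 of 10, were above each of these backgrounds. With 10 genes, 1 gene moves a share by 10 percentage points, and no test of the list was made.

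Each replicate list held 30000 relaxed entries, so its 4159 strongest entries by signal were used to match the length of the optimal list. Among the strongest of replicate 1, 6 of the 10 genes had a summit at an own promoter, against 10.1% of all protein-coding genes. Among the strongest of replicate 2 the count was 7 of 10, against 17.1%. Desat1 was the gene that differed, since its promoter summit had no entry in the replicate 1 list. A match within 200 bp in both replicate lists was found for 14 of the 18 summits, against 86.9% of all optimal summits. The 4 summits without one lay at Lsd-1, Lsd-2, Lpin and Desat1, all 4 were missing from the replicate 1 list, and 0 were missing from that of replicate 2. Over the whole optimal list 529 summits (12.7%) were missing from replicate 1 and 17 (0.409%) from replicate 2, so the same imbalance ran through the list. The optimal list was made from these replicates, so part of any match is built in. The lists hold no read counts, and the depth of the libraries is unknown.

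**Figure D2:**
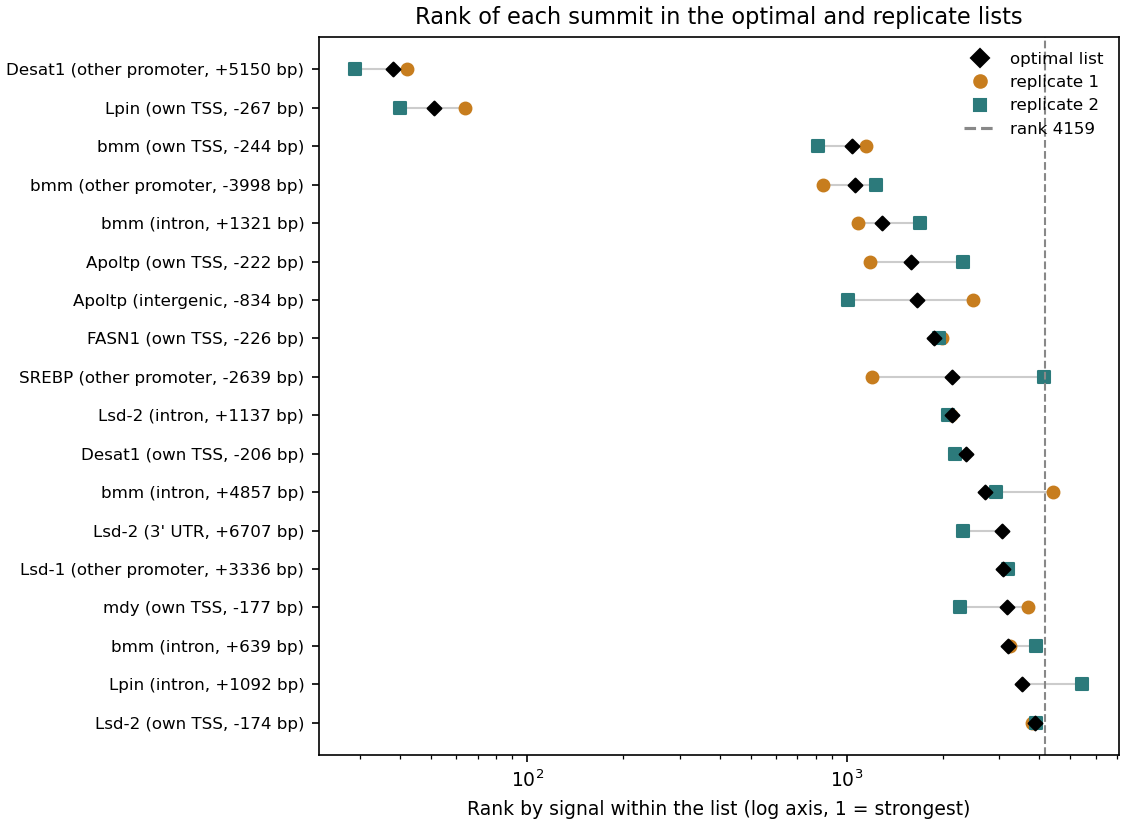
Rank by signal of each of the 18 summits in the optimal list (black diamonds), in replicate 1 (orange circles) and in replicate 2 (green squares), on a log axis where 1 is the strongest entry of a list. Labels give the gene, the class and the distance to the gene's nearest own TSS, with negative values upstream, and the dashed line marks rank 4159. The pair of summits at Desat1 and Lpin stands apart at ranks 29 to 64 in every list, all others lie at rank 811 or weaker, and the 4 summits without a circle have no replicate 1 entry.

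The lipase gene bmm carried the most summits. It encodes brummer, the fly counterpart of adipose triglyceride lipase, which starts the breakdown of stored triacylglycerol. The gene (FBgn0036449) lies at chr3L:14776496-14786412 on the minus strand, with 1 TSS and 2 transcripts. Its window held 5 optimal summits, a count reached or passed by 199 of 13945 protein-coding genes (1.43%). The strongest, at position 14786656 in the peak chr3L:14786602-14786829, lay 244 bp upstream of the TSS, with a signal of 365.5 and rank 1035 of 4159. Signal is the peak strength written by the authors' caller, and it was used here only to order peaks within 1 list. Replicate 1 placed an entry 23 bp away at rank 1147 (signal 178.7), and replicate 2 placed one 24 bp away at rank 811 (signal 190.4). The region is a divergent promoter: the same summit lies 135 bp upstream of Tdrd3, a gene for a Tudor-domain protein transcribed from the plus strand. Nearness alone therefore does not assign the summit to either gene.

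Another 3 of the bmm summits lay in intron 1 of both transcripts, at 639, 1321 and 4857 bp downstream of the TSS. The one at 1321 bp had a signal of 320.3 and rank 1286, and it was placed at the same base in replicate 1 (rank 1080) and 11 bp away in replicate 2 (rank 1690). The one at 639 bp was weaker, with a signal of 144.2 and rank 3198, and ranked 3233 in replicate 1 and 3892 in replicate 2. The one at 4857 bp had a signal of 171.3 and rank 2705. Its replicate 1 entry lay 184 bp away at rank 4411, outside the 4159 strongest, while that of replicate 2 lay 29 bp away at rank 2918. The intron of bmm thus held 1 summit that both replicates ranked high and 2 in the lower ranks. The last summit of the window, at position 14790410 with signal 359.4 and rank 1062, lay 3998 bp upstream of bmm. It was 141 bp upstream of a TSS of Helz, which encodes a putative RNA helicase, and inside an intron of another Helz transcript.

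The perilipin genes differed from each other. Perilipins coat the lipid droplet, Lsd-1 serving as a platform for hormone-stimulated lipolysis and Lsd-2 shielding the store. Lsd-2 (FBgn0030608, chrX:15069127-15076220, minus strand, 1 TSS and 5 transcripts) held 3 summits. The promoter summit lay 174 bp upstream of the TSS and was the weakest of the 18, with a signal of 121.3 and rank 3870. It was found in both lists, at rank 3793 in replicate 1 and 3908 in replicate 2, though 66 and 48 bp from the pooled position. The strongest of the gene lay in intron 1 of all 5 transcripts, 1137 bp downstream, with a signal of 211.5 and rank 2140, and ranks of 2114 and 2072 in replicates 1 and 2. The remaining one, with signal 151.8 and rank 3049, fell in the 3′ UTR, 6707 bp downstream. It had an entry in replicate 2 at rank 2304 but none in replicate 1 within 200 bp, where the nearest lay 883 bp away. The Lsd-2 summits were thus of low to middle rank, and 2 of the 3 were present in both lists.

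Lsd-1 (FBgn0039114, chr3R:23763857-23766662, plus strand, 2 TSSs) had no optimal summit at a TSS of its own. The single summit of its window, with signal 150.4 and rank 3074, lay 912 bp past the 3′ end of the gene. It sits between divergent TSSs, 86 bp upstream of CG10214 and 138 bp upstream of CG10375. Replicate 2 placed it at the same base at rank 3192. Replicate 1 listed 0 entries in the whole Lsd-1 window, the nearest being 9364 bp from the summit. At the promoter itself, below the optimal list, the pooled list held an entry 43 bp upstream of the first TSS at rank 4813 (signal 99.0), and replicate 2 held one 141 bp upstream at rank 5650.

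Of the lipoprotein genes, Apoltp carried summits and apolpp did not. Apoltp encodes the apolipoprotein of the lipid transfer particle, which loads lipid onto lipophorin, and apolpp encodes the precursor of the apolipophorins, the protein core of lipophorin. Apoltp (FBgn0032136, chr2L:9634179-9656026, plus strand, 1 TSS and 1 transcript) had 2 summits upstream of the TSS and 0 in its body of 21848 bp. The nearer, 222 bp upstream, had a signal of 269.6 and rank 1591. It was placed at the same base in replicate 1 (signal 175.5, rank 1182) and 8 bp away in replicate 2 (signal 96.9, rank 2305). The farther, 834 bp upstream in intergenic sequence, had a signal of 260.9 and rank 1663. Its order between replicates was the opposite, with rank 2474 in replicate 1 and 1005 in replicate 2. Both were among the strongest of both lists, and no other TSS lies within 500 bp of either.

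The number of entries in the Apoltp window also differed between the relaxed lists. Replicate 1 held 12 entries in the Apoltp window, replicate 2 held 4 and the pooled list 8. The best of the 10 replicate 1 entries that matched no optimal summit ranked 4700. It lay past the 3′ end of the gene, in intergenic sequence, and replicate 2 had a counterpart within 200 bp. Another of the 10, in a coding exon 9294 bp downstream of the TSS, stood at rank 5561 (signal 43.1), with no counterpart within 200 bp in replicate 2. FASN1 had the same order, with 8 entries in replicate 1 and 3 in replicate 2. In the other 8 genes replicate 2 had the more entries. The share of all protein-coding genes with either order was not computed, so these counts cannot be set against it.

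The window of apolpp (FBgn0087002, chr4:1060969-1077273, plus strand, 3 TSSs and 4 transcripts) held 0 optimal and 0 pooled entries, and the nearest optimal summit was 33706 bp away. Replicate 2 alone listed an entry 31 bp downstream of the first TSS at rank 4548 (signal 57.1) and an intron entry at rank 4428 (signal 58.2). The best of 3 replicate 1 entries ranked 18969 (signal 23.0). Chromosome 4, on which apolpp lies, held 8 optimal summits in all, and 206 entries in the replicate 2 list against 56 in that of replicate 1.

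Of the 4 genes for enzymes of lipid synthesis, all had an own-promoter summit, at ranks from 51 to 3163 of the optimal list. All 4 have 2 or more TSSs, and 23.8% of such protein-coding genes had an own-promoter summit. In the other lists of lipid synthesis described below, 3 of 12 and 3 of 10 genes had one. FASN1 encodes fatty acid synthase, which builds saturated fatty acids from malonyl-CoA. The gene (FBgn0283427, chr2L:3056598-3068177, plus strand, 2 TSSs) had 1 summit, 226 bp upstream of the first TSS, with a signal of 236.0 and rank 1876. Of the 7 it was the closest in position across lists, at the same base in replicate 1 (rank 1982) and 1 bp away in replicate 2 (rank 1941). Desat1 encodes a stearoyl-CoA desaturase, which turns saturated into monounsaturated fatty acids. Its gene (FBgn0086687, chr3R:12439600-12447616, plus strand) has 5 TSSs and 5 transcripts. The own-promoter summit, with signal 193.2 and rank 2353, lay 206 bp upstream of the fourth TSS, which serves 1 transcript, and inside intron 1 of 3 others. Replicate 2 placed it 19 bp away at rank 2175, while the nearest replicate 1 entry was 5810 bp away. For Desat1 the own-promoter summit therefore rests on replicate 2 and the pooled list.

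The downstream flank of Desat1 held the strongest of the 18 summits, with a signal of 1703.6 and rank 38 of 4159. It ranked 42 in replicate 1 (signal 950.4) and 29 in replicate 2 (signal 755.4). It lay 1575 bp past the end of Desat1 and 105 bp upstream of the TSS of CG18549, on the same strand. By position it is a CG18549 promoter summit, counted in the window of Desat1 but not at its promoter.

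The genes for the last steps of triacylglycerol synthesis stood far apart in rank. Lpin encodes lipin, the phosphatidate phosphatase that makes diacylglycerol, and mdy (midway) encodes a diacylglycerol acyltransferase of the DGAT1 kind, which makes triacylglycerol from it. The Lpin gene (FBgn0263593) lies at chr2R:8136986-8156654 on the minus strand, with 4 TSSs and 11 transcripts. Its promoter summit lay 267 bp upstream of the second TSS, counted from the 5′ end, which serves 7 of the 11 transcripts. The signal was 1526.6 and the rank 51 of 4159. Replicate 1 placed it 14 bp away at rank 64 (signal 793.7), and replicate 2 placed it 7 bp away at rank 40 (signal 718.6). The site lies about midway in the gene body, in intron 1 of the 2 transcripts that start at the far 5′ end, and no TSS of another gene is within 500 bp. Of the 7 own-promoter summits it was the strongest in all 3 lists. A further Lpin summit, 1092 bp downstream of the same TSS in intron 1 of 9 transcripts, was among the weak ones, with signal 131.4 and rank 3520. It had no replicate 1 match, with the nearest entry 1345 bp away, and its replicate 2 entry ranked 5453.

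The mdy gene (FBgn0004797, chr2L:16816660-16826964, plus strand, 2 TSSs and 4 transcripts) had 1 summit, 177 bp upstream of the first TSS, with a signal of 146.2 and rank 3163. The first TSS serves 3 of the 4 transcripts, and the summit also lies in an intron of CG13280. Replicate 1 placed it 94 bp away at rank 3675 and replicate 2 placed it 16 bp away at rank 2251, so it was a weak summit present in both lists.

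SREBP, the regulator of the group, had no optimal summit at its TSS. The gene (FBgn0261283, chr3L:19793935-19798979, plus strand) has 1 TSS and 4 transcripts. The 1 summit of the window lay 2639 bp upstream, with a signal of 211.8 and rank 2132, and was 255 bp upstream of TSSs of Gyc76C, which encodes a receptor guanylyl cyclase, and of CG42637. The replicates ranked it apart, at 1197 in replicate 1 and 4122 in replicate 2. Below the optimal list, the pooled list held an entry 82 bp upstream of the SREBP TSS at rank 6419 (signal 74.5), and replicate 2 held one 85 bp upstream at rank 5702. Replicate 2 alone listed 2 strong entries in the gene. They lay in an intron 515 bp downstream of the TSS at rank 1421 (signal 136.3) and in the 5′ UTR 720 bp downstream at rank 2330 (signal 96.3), and neither had a pooled or replicate 1 entry within 200 bp. Strong replicate 2 entries of this kind were common, since 517 of the 4159 strongest of replicate 2 (12.4%) had no pooled entry within 200 bp, against 25 of replicate 1 (0.601%).

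The 7 own-promoter summits lay between 267 and 174 bp upstream of the gene's own TSS, with a median of 222 bp. Measured the same way, all protein-coding genes gave 2051 pairs of a gene and an own-promoter summit, a summit between 2 genes being counted for each. In these the median was 160.0 bp upstream, the quartiles were 259.5 and 83.0 bp upstream, and 89.5% lay upstream. All 7 lay farther upstream than this median, and 6 of the 7 lay between the quartiles, Lpin being the exception. For bmm the nearest TSS is not its own but that of Tdrd3, at 135 bp. Of the 7, 6 had a match in both replicate lists, against 77.3% of all 1636 optimal promoter summits. The annotated TSS is itself an estimate, and no measurement of start sites in these larvae was used.

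**Figure D3:**
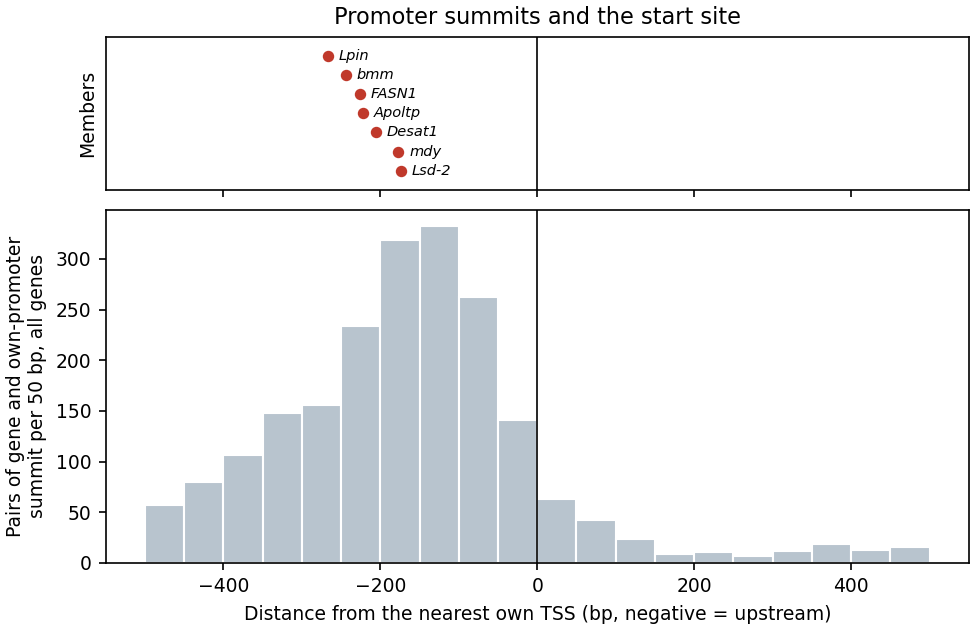
Distance of own-promoter summits from the nearest TSS of the same gene in bp, with negative values upstream. The upper panel shows 7 lipid genes, 1 point each, and the lower panel counts all 2051 pairs of a protein-coding gene and an own-promoter summit in bins of 50 bp. The 7 points lie between 267 and 174 bp upstream, and the median of all pairs is 160.0 bp upstream.

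In strength the 18 summits were like the list as a whole. Their signals ranged from 121.3 to 1703.6 with a median of 211.7, against 113.2 to 4440.2 with a median of 217.0 for all optimal summits. With the optimal list divided by rank into 4 equal parts, 3 of the 18 lay in the strongest part, 5 and 6 in the next ones and 4 in the weakest. Most of the lipid genes thus carried summits of middle or low rank, and Lpin alone had an own-promoter summit among the top 100.

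The summits were poor in G and C, as optimal summits in general were. Over the summit and 50 bp on each side, the 18 had a median GC content of 29.7% (quartiles 23.3 and 36.4), against 31.7% (26.7 and 37.6) over all optimal summits. In the flanks 500 bp away the medians were 41.1% for the 18 and 44.1% for all. GC was lower at the summit than in its flanks at 14 of the 18 (77.8%), against 82.8% of all. At the 7 own promoters GC ranged from 17.8% at bmm to 42.6% at FASN1, with a median of 22.8%. Over all optimal promoter summits the median was 31.7% (quartiles 26.7 and 38.6). Runs of at least 8 A or T, the capitals in the sequences above, were present at 14 of the 18 (77.8%) and at 5 of the 7 own promoters, against 79.1% of all optimal summits and 49.4% of windows 500 bp to their right. The longest were 25 bp, at the promoters of bmm and Lpin. Taken over all 18 summits, these values lay close to those of the whole list. At the 7 own promoters, the median GC of 22.8% was below the lower quartile of all optimal promoter summits, 26.7%. The 4 summits that were not poorer in G and C than their flanks were those at Apoltp 834 bp upstream (47.5% against 45.5%), in the Lsd-2 3′ UTR (60.4% against 37.1%), in the Lsd-2 intron (43.6% against 38.6%) and in the Lpin intron (36.6% against 34.7%).

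**Figure D4:**
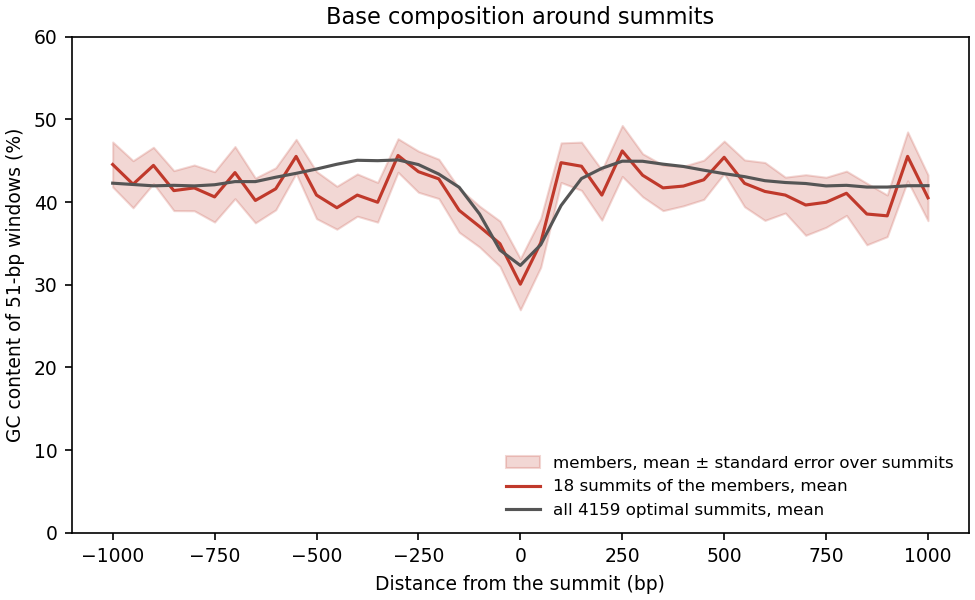
Mean GC content of 51-bp windows, in percent, by distance from the summit in bp. The red line is the mean of the 18 summits, its band is the mean ± the standard error over summits (a spread between sites, not between replicates), and the grey line is the mean of all 4159 optimal summits. At the summit the means are 30.07% for the 18 and 32.34% for all, and both lines climb above 40% within 250 bp on either side.

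Short motifs were searched on both strands within 50 bp of each summit, as exact letters. A match is a description of the letters and not a measured site. GATA letters (AGATAA or TGATAA or AGATAG or TGATAG), the kind read by GATA factors such as the fat body factor Serpent, were present at 6 of the 18 (33.3%), against 23.6% of all optimal summits. These were the bmm promoter and the bmm intron summit 1321 bp downstream, the Apoltp and FASN1 promoters, the weak Lpin intron summit and the Gyc76C promoter in the SREBP window. The homeodomain letters TAATTA were found at 2 (11.1%), against 10.8%, in the Lsd-2 intron and at CG18549. The letters GTAAACA, read by forkhead factors such as FOXO, were found at the FASN1 promoter alone (5.56%), against 3.15%. The published DM-domain letters ACAATGT or ACATTGT and TGTATCA were in 0 of the 18, against 2.04% and 1.32% of all. As a comparison, ACTATGT, which is TGTATCA read backwards, was found at 1 of the 18, the Gyc76C promoter, against 1.32%. The backwards reading of the other DM-domain letters (TGTAACA or TGTTACA) was in 0 of the 18, against 1.73%. The same held for the letters TATCGATA of the DNA replication-related element, against 0.986%, and for both E-box forms, CACGTG against 0.529% and CAGCTG against 2.62%. The nuclear receptor half-site AGGTCA was also in 0 of the 18, against 1.97%.

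A further 62 genes of lipid metabolism and the fat body, in 6 lists, were counted in the same way, and 60 of them matched the annotation by a single symbol. An own-promoter summit was present at 14 of the 60 (23.3%), against 13.1% of all protein-coding genes. In the gene body or within 5 kb, 35 of the 60 held an optimal summit, against 36.1% of all protein-coding genes. By list the counts were uneven. Of 10 genes of hormone and transcription control 5 had one, led by ERR, the estrogen-related receptor (signal 639.1, rank 375), Sirt1, a deacetylase (534.6, rank 554, with no replicate 1 match), Hnf4, a nuclear receptor of lipid catabolism (433.1, rank 801), and bigmax, the partner of the sugar sensor Mondo (206.0, rank 2207). Of 10 genes of lipolysis and beta-oxidation 3 had one: Mcad, the medium-chain acyl-CoA dehydrogenase (895.3, rank 175), whd, a carnitine palmitoyltransferase (161.5, rank 2884, with no replicate 1 match), and the lipase Lip4 (125.7, rank 3716).

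Of 12 genes of fatty acid synthesis and SREBP processing 3 had an own-promoter summit: Acsl, an acyl-CoA synthetase (379.3, rank 983), Baldspot, a fatty acid elongase (248.2, rank 1754), and AcCoAS, the acetyl-CoA synthetase (146.2, rank 3161). Of 10 genes of triacylglycerol and phospholipid synthesis 3 had one: Cds, the CDP-diacylglycerol synthase (540.2, rank 542), Pis, the phosphatidylinositol synthase (314.5, rank 1318, with no replicate 1 match), and the acyltransferase Gpat4 (194.8, rank 2328). The 9 genes of droplet and lipoprotein handling, such as Jabba, Mtp and the lipophorin receptor genes LpR1 and LpR2, had 0 at an own promoter. In the window, 5 of these 9 held a summit. The 9 fat body products and factors, such as the larval serum protein genes Lsp1alpha and Lsp2, had 0 at an own promoter as well, and 5 of them held a summit in the window. The 0 of 9 in droplet and lipoprotein handling stood beside summits at the promoters of Lsd-2 and Apoltp, whose products do similar work. Lists of 9 to 12 genes are short, so a difference of 1 or 2 genes between them is not a distinction, and none was tested.

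**Figure D5:**
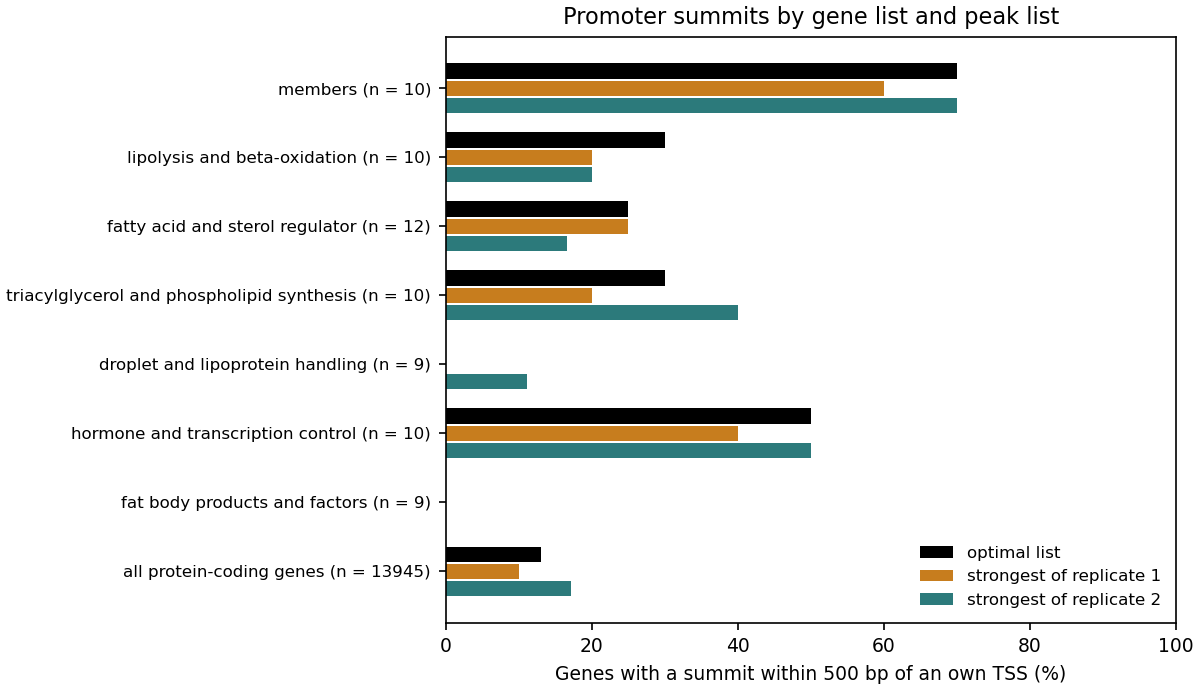
Share of genes, in percent, with a summit within 500 bp of an own TSS, for the 10 lipid storage and transport genes (members), 6 other lists and all 13945 protein-coding genes. Bars give the optimal list (black) and the 4159 strongest entries of replicate 1 (orange) and of replicate 2 (green), and an absent bar is 0. The bars of the 10 genes stand at 70%, 60% and 70%, those of hormone and transcription control at 50%, 40% and 50%, and those of all genes at 13.1%, 10.1% and 17.1%.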

How the data were processed

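ChIP-seq of dmrt93B-GFP was analysed in 1 group of 2 biological replicates, per the labels. On dm6, the authors deposited a relaxed list of peaks for each replicate and for the pool of both, and an optimal list that passed a threshold on the irreproducible discovery rate (IDR). The deposited signal of each peak, written by the authors' caller, is not comparable between lists and served only to rank peaks within one. The control is the same for both replicates, per text deposited with the samples. The sources used here do not name the aligner, the caller, the IDR threshold or the read depth, so no interval could be set on a value.

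Summits were assigned to genes of Ensembl release 115 (window 5 kb, promoter 500 bp), matched between lists within 200 bp, and read from the RefSeq Release 6 sequence (50 bp on each side; flanks 500 bp away). A promoter took precedence over UTRs, exons and introns. Positions are 1-based. Attribution to a gene is by nearness. Counts were set beside all protein-coding genes, with no test. All 10 genes are named, with neighbours whose TSS lies within 500 bp and, of the other lists, up to 4 genes per list by signal. The genes and lists were chosen with earlier results of these data known. Cct1 and Cct2 matched more than 1 gene as older symbols and were left out. Window and promoter ranges, TSS distances and genomic classes were checked on simulated summits placed near real TSSs. Matching between lists was not checked in this way. Alternatives changed the windows, list strength, matching and replicate. Python 3.11.15, numpy 2.4.6, pandas 2.3.3 and matplotlib 3.10.9 were used.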

Additional observations from a re-analysis of the deposited data

How the results depend on the processing

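Of 24 alternatives, 18 left the count within 1.5 times of the reported one and 6 did not, and those 6 use smaller sets by construction. Some of the 18 could not have moved either, since wider windows or matching distances can only raise a count. Counts of 9 or 7 of 10 genes, or of 14 of 18 summits, are too near their ceiling to rise by 1.5 times. With gene bodies alone, without flanks, 4 of the 10 genes held an optimal summit, against 9.4% of all protein-coding genes, and 8 summits were counted. Among optimal summits stronger than the median signal, 5 of the 10 genes held a summit in the window (25.2% of all genes) and 4 at an own promoter (8.47%). Those stronger ones include 8 of the 18 summits, and all 8 were matched in both replicate lists. The share of all stronger optimal summits matched in both was not computed, so the 8 cannot be set against it. Without replicate 1, 9 genes held a summit in the window, against 43.3% of all genes, 7 at an own promoter, against 17.1%, and 20 summits were counted. Without replicate 2 the counts were 8 genes, against 30.4%, 6 genes, against 10.1%, and 13 summits. Matching at 100 bp gave 13 of the 18 summits found in both lists, and the share over all optimal summits was not computed at that distance. An alternative chosen after seeing the data kept only summits found in both replicate lists, and gave 8 genes in the window, against 28.4% of all genes, and 6 at an own promoter, against 9.54%. The unknown depth limits what an absent entry shows.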
